A study of Mus musculus with 16 samples.

Results

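The 50 genes described here, called the cell cycle genes below, encode proteins of DNA replication, S phase and mitosis. They were picked by symbol from the gene lists of mouse dorsal skin RNA, where each library listed 23282 rows and 14854 of these rows had enough counts to be tested. All 50 symbols were listed once, and all 50 passed the filter on low counts. The libraries came from wild-type male C57BL/6N mice, with 4 skin samples in each of 4 groups. Cont mice ate normal chow. LowAhR mice ate a diet low in ligands of the aryl hydrocarbon receptor (AhR), a transcription factor that senses plant and microbial indoles, for 12 weeks. The methods state that the low AhR ligand diet group also had paper bedding free of AhR ligands. In comparisons with Cont, diet and bedding therefore cannot be told apart. LowAhR+AD mice ate the same diet and, from 2 weeks on, had 1% 2,4-dinitrochlorobenzene (DNCB), a hapten that causes a dermatitis used as a model of atopic dermatitis (AD), put on the back skin 2 times per week. LowAhR+AD+BJ mice had the diet, DNCB and Bojungikgi-tang (BJIKT), a herbal decoction, by mouth at 1 g/kg per day. No group received DNCB on normal chow, or BJIKT without DNCB, so the dermatitis was measured only on the low AhR ligand diet. The methods give DNCB in acetone and olive oil and BJIKT in water by oral gavage. They state no vehicle or gavage for the other groups. DNCB and its vehicle and handling therefore cannot be told apart, nor can BJIKT and its gavage.

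A dividing cell copies its DNA in S phase and separates the copies in mitosis. Before S phase the replicative helicase is loaded on origins, E-type cyclins then start the firing of these origins, and enzymes of nucleotide synthesis supply the building blocks. Later, B-type cyclins with the kinase Cdk1 drive entry into mitosis, where kinases, a checkpoint and a ubiquitin ligase time the separation of the chromosomes on the spindle, and cytokinesis cuts the cell. Many of these genes are transcribed only in dividing cells, with replication genes under E2F factors and mitosis genes under the DREAM and MuvB complexes. In skin, dividing cells are found mainly in the basal layer of the epidermis and in the matrix of growing hair follicles.

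Levels are given in CPM, the counts a gene would have in a library of a fixed size, with TMM factors applied, and libraries of a group are given in the order of their replicate numbers. Library totals were 7080508 to 8773876 counts in Cont and LowAhR and 10614393 to 13467477 counts in both DNCB groups, so depth and DNCB treatment moved together without overlap. Over all libraries, 0 counts allowed a level of up to 0.229 to 0.406 CPM (3 counts, counting error only). From 0 to 5 of the 50 genes had 0 counts in a library, with the most in LowAhR replicate 2. LowAhR+AD replicate 1 listed the fewest genes with a count, 13560. It also had the lowest summed levels of suprabasal, hair follicle, fat, fibroblast, macrophage and neutrophil markers in its group and the highest of basal keratinocyte markers, and counts of calls are given with and without it. The last 500 bases of 8 of the genes, where this 3′ method reads, overlapped another counted gene on the other strand (Mcm7 with Cops6, Gins2 with Gse1, Ccne2 with Ints8, Ccna2 with Exosc9, Cdc20 with Elovl1, Ube2c with Tnnc2, Kif20a with Cdc23 and Prc1 with Rccd1). The use of strand in the counting is not given in the sources used here, so the reads of these 8 genes and of their partners cannot be told apart.

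The promoters show what the genes share beyond their names. RefSeq promoter sequences (GRCm38.p6, from 250 bases before to 50 bases after a start site) were found for 41 of the 50 genes, and 3 motifs were searched on both strands. The CHR motif, TTTGAA, and the CCAAT box, CCAAT, are known from genes of G2 and mitosis, and the E2F motif from genes of replication. The E2F motif was taken as TTCCCGC with the variant TTGGCGC, the further variant TTCGCGC and the last variant TTGCCGC. The E2F motif was found in 7 of 11 promoters of the replication and G1/S genes (63.6%) and in 5 of 30 promoters of the G2/M and mitosis genes (16.7%), beside 15.8% of the 11155 tested genes with a promoter. The CHR motif had the opposite distribution, with 1 of 11 (9.09%) and 23 of 30 promoters (76.7%), beside 12.6% of the tested genes. The CCAAT box was found in 72.7% and 80.0% of the promoters, beside 38.2% of the tested genes. Over all 27025 promoters of the table the shares were 18.1% for CHR, 37.9% for CCAAT and 9.69% for E2F. These matches are descriptions and were not tested. Promoters of 6 genes are shown because they span the groups and the directions found below. Mcm6 (chr1:128359656-128359955, minus strand) and Mcm5 (chr8:75109259-75109558, plus strand) had the lowest p-values of all 50 genes in the dermatitis comparison. Cdk1 (chr10:69352863-69353162, minus strand) and Top2a (chr11:99024140-99024439, minus strand) are mitosis genes that were higher there, Birc5 (chr11:117848987-117849286, plus strand) was higher too but its window held no match, and Ttk (chr9:83834439-83834738, plus strand) was the gene that went the other way. Each runs 5′ to 3′ on the strand of the gene, and capitals mark every match to a motif or its reverse complement, with overlapping matches in a shared run.
Mcm6: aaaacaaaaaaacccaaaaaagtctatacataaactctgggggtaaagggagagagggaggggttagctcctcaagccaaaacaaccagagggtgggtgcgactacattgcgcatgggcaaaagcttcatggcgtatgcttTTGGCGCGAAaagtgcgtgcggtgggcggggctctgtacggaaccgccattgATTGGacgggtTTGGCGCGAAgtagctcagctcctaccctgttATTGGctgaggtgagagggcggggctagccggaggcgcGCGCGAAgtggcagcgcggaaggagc
Mcm5: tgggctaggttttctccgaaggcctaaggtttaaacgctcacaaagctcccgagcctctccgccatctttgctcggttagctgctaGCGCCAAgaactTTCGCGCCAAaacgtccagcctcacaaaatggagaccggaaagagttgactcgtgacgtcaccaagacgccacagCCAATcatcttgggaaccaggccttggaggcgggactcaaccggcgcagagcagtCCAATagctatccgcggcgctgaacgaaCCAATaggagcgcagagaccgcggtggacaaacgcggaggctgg
Cdk1: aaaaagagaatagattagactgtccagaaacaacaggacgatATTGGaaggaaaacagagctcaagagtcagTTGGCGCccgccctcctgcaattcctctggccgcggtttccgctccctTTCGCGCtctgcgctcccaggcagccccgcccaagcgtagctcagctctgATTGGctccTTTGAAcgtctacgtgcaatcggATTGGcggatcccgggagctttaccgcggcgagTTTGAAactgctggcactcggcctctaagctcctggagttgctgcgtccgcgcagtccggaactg
Top2a: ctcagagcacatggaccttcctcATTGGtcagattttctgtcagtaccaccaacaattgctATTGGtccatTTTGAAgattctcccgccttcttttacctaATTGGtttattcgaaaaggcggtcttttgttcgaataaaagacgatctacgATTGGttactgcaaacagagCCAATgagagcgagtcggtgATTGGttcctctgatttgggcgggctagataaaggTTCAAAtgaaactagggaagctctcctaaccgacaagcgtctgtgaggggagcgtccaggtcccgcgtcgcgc
Birc5: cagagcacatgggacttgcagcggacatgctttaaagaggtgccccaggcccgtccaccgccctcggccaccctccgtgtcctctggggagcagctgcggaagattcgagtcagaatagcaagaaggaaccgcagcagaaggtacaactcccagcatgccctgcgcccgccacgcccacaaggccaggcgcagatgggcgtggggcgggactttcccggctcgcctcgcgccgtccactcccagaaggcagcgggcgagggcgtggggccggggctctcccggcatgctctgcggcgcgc
Ttk: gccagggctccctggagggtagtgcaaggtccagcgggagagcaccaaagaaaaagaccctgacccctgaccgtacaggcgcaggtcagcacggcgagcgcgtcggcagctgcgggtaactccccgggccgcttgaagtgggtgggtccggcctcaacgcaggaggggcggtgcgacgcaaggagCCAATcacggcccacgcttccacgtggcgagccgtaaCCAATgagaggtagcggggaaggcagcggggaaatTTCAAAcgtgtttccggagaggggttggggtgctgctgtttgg
The windows of Mcm6 and Mcm5 held 5 and 3 E2F matches and no CHR. The Cdk1 window held 2 CHR, 3 CCAAT and 2 E2F matches, and that of Top2a held 2 CHR and 6 CCAAT matches. The Ttk window held 1 CHR and 2 CCAAT matches, like those of mitosis genes that were higher in dermatitis.

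**Figure D1:**
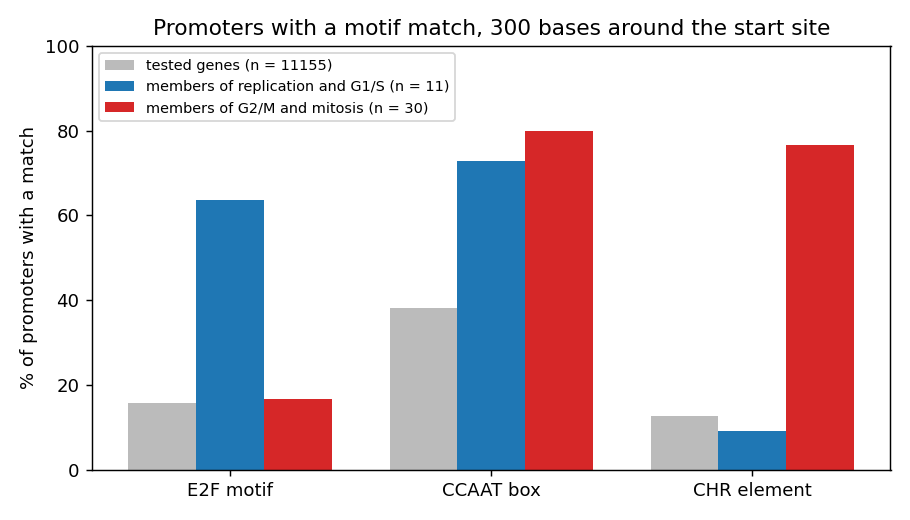
Percentage of promoters with at least 1 match to each motif (vertical axis, %), for the tested genes with a promoter (grey, n = 11155), the replication and G1/S genes (blue, n = 11) and the G2/M and mitosis genes (red, n = 30). Among the E2F bars that of the replication genes is highest (63.6%), and among the CHR bars that of the mitosis genes (76.7%).

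The comparison of LowAhR+AD with LowAhR mice asks how these genes differed with DNCB, given in its vehicle, in mice on the same diet. Of the 50 genes, 17 were higher in LowAhR+AD at an adjusted p under 0.05 (edgeR quasi-likelihood test, Benjamini-Hochberg over all 14854 tested rows) and 0 were lower, beside 6.42% of all tested rows called higher and 6.21% called lower. The fitted log2 fold change was above 0 for 49 of the 50 genes, beside 52% of all tested rows, with a median of 1.12 (2.17-fold) beside 0.04 over all tested rows. The groups did not overlap for 24 genes, all higher in LowAhR+AD, beside 8.92% of all tested rows higher and 9.85% lower without overlap. At an unadjusted p under 0.05 there were 29 of the 50 genes, beside 28.1% of all rows. Summed over the 50 genes, the level was 753 ± 90.8 CPM (SD, n = 4; lowest library 671.5, highest 861) in LowAhR and 1538 ± 162 CPM (1330 to 1677) in LowAhR+AD, so the lowest DNCB library was above the highest LowAhR library. In whole skin, more dividing cells and more of these RNAs per dividing cell cannot be told apart. Without LowAhR+AD replicate 1 the counts by role given below changed in 3 roles, to 3 helicase genes, 1 spindle gene and 1 gene of the chromatin of dividing cells. The count of 17 was 9 without LowAhR replicate 1, 10 without LowAhR replicate 2, 10 without LowAhR+AD replicate 2, 16 when replicate 1 of that group was left out, and 8 when only the 8 libraries of the comparison were fitted. With all counts thinned to the smallest library total it was 18, including all 17 genes (an alternative chosen after seeing the data). For these fits, and for such fits below, the shares of all rows called are not given here. Whether calls over all rows changed alike is therefore not shown.

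**Figure D2:**
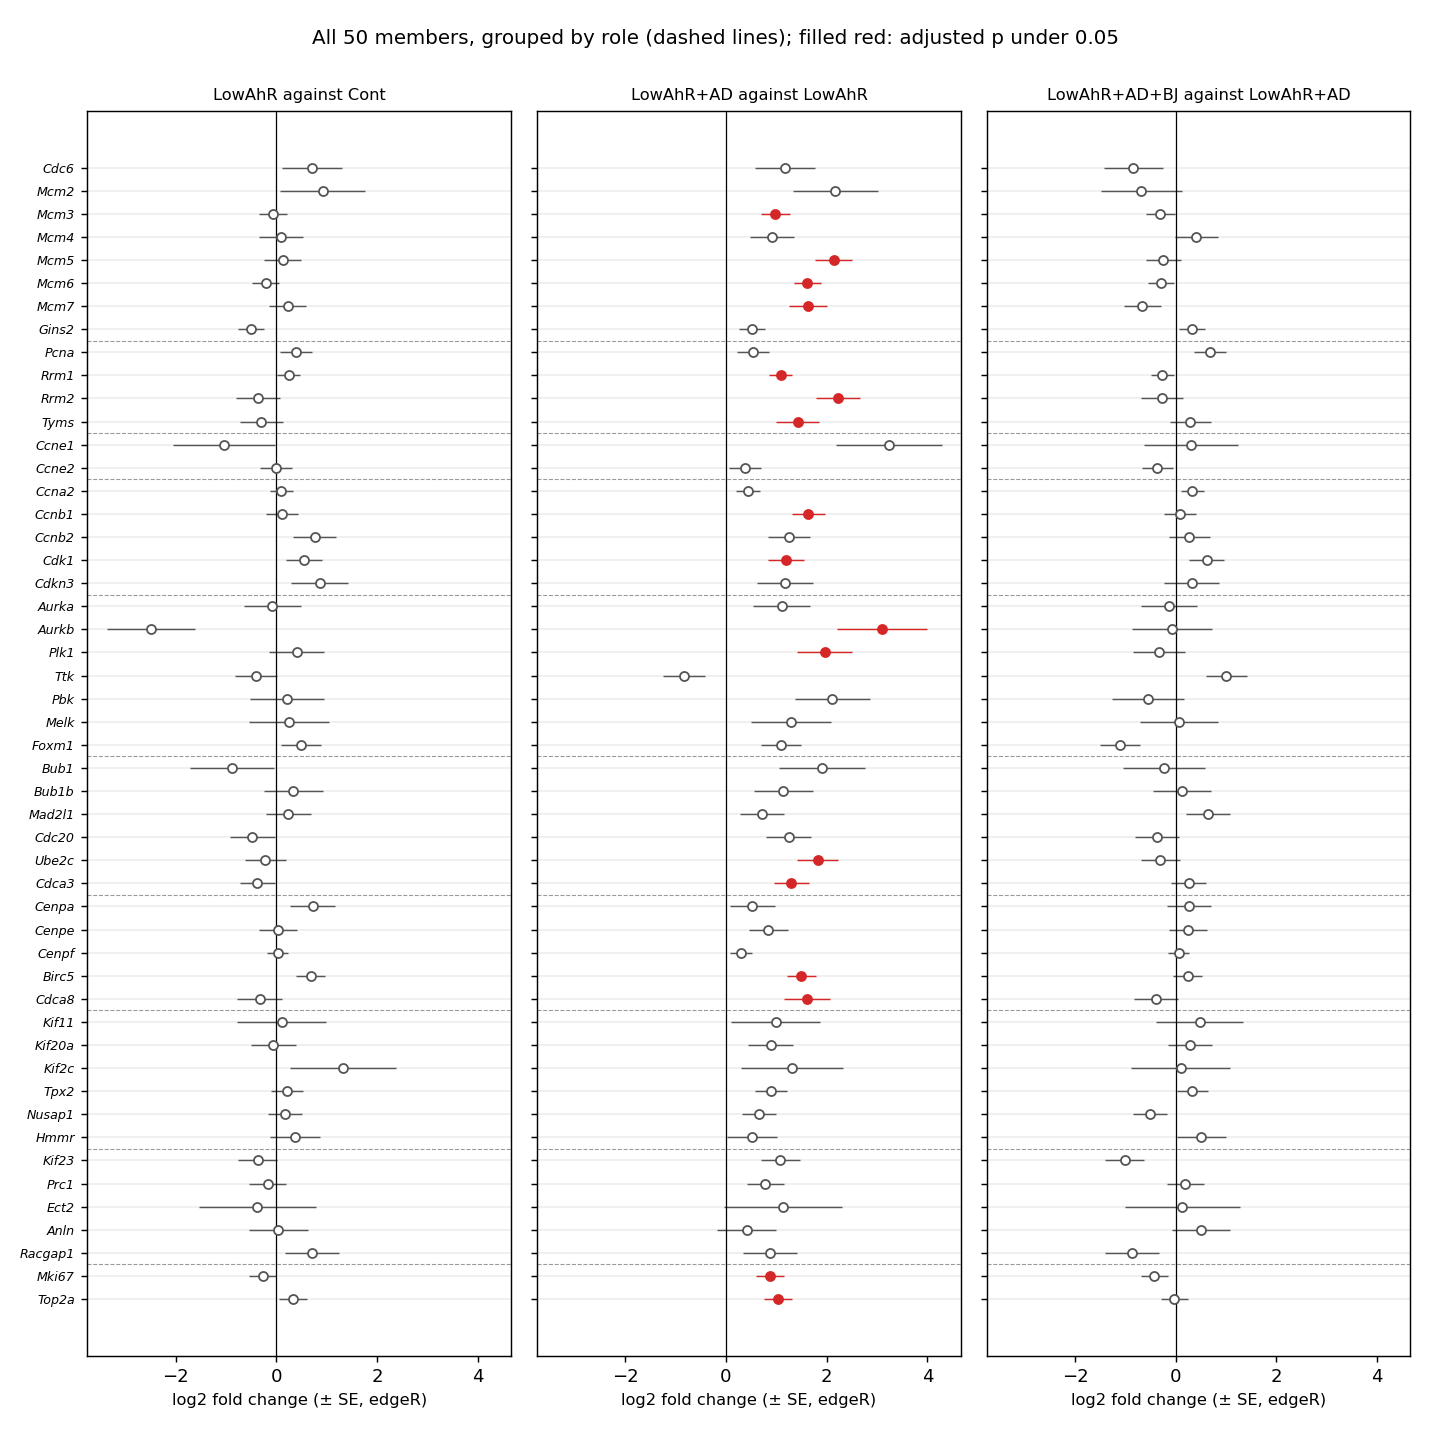
Log2 fold change (horizontal axis) of each of the 50 genes with its standard error (bars, edgeR) in 3 comparisons, with genes ordered by role between dashed lines and calls at an adjusted p under 0.05 filled in red. In the middle panel all genes but Ttk lie right of 0 and 17 are red, and no gene is red in the left or right panel.

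Among the genes of origin licensing and the replicative helicase, 4 of 8 rose in LowAhR+AD (Mcm3, Mcm5, Mcm6 and Mcm7), and the other 4 had log2 fold changes from 0.51 (Gins2) to 2.17 (Mcm2) that did not pass the test. Mcm6 (gene at chr1:128331575-128359705), a subunit of the helicase ring, was at 22.1, 12.3, 20.6 and 21.2 CPM in Cont, 14.7, 21.7, 15.1 and 14.1 CPM in LowAhR, 57.1, 39.3, 42.6 and 62.1 CPM in LowAhR+AD and 37.4, 39.9, 30.5 and 56.7 CPM in LowAhR+AD+BJ. Both DNCB groups lay above all 8 libraries without DNCB, and Mcm6 was 3.06-fold higher in LowAhR+AD than in LowAhR (log2 1.61 ± 0.27 SE, adjusted p = 0.00130). Mcm5 (chr8:75109468-75128439), another subunit of the ring, was at 7.44, 5.42, 4.56 and 5.74 CPM in Cont, 10.5, 3.58, 3.90 and 7.27 CPM in LowAhR, 25.2, 19.4, 26.4 and 41.01 CPM in LowAhR+AD and 23.5, 21.2, 19.7 and 30.3 CPM in LowAhR+AD+BJ. It was 4.42-fold higher (log2 2.14 ± 0.37 SE, adjusted p = 0.00168), again with every DNCB library above every other. The further ring subunits Mcm3, at a mean of 29.3 ± 3.40 CPM (SD) in LowAhR and 57.97 ± 15.2 CPM in LowAhR+AD (log2 0.98 ± 0.29 SE, adjusted p = 0.0313), and Mcm7, at 16.5 ± 10.004 and 50.9 ± 18.9 CPM (log2 1.63 ± 0.37 SE, adjusted p = 0.00944), did not overlap between these groups either. Mcm3 kept its call in only 1 of the 8 fits with a library left out, the fit without LowAhR+AD replicate 3 (adjusted p 0.0510 to 0.0859 in the others), whereas Mcm5, Mcm6 and Mcm7 kept theirs in all 8. Mcm2, a further subunit, had no overlap and a fitted change about as large as that of Mcm5, from 6.97 ± 5.25 to 31.4 ± 17.4 CPM, but a wide spread (log2 2.17 ± 0.85 SE, adjusted p = 0.0993). Gins2 (chr8:120581266-120589075), a subunit of the GINS complex that travels with the helicase, was at 50.9, 27.6, 22.2 and 23.7 CPM in Cont, 19.2, 19.95, 21.7 and 26.7 CPM in LowAhR, 30.3, 33.04, 31.9 and 29.7 CPM in LowAhR+AD and 42.04, 45.4, 29.8 and 39.2 CPM in LowAhR+AD+BJ. Every LowAhR+AD value exceeded every LowAhR value but was within the Cont range, and the change did not pass the test (log2 0.51 ± 0.26 SE, adjusted p = 0.205).

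Of the 4 genes of the replication clamp and nucleotide supply, 3 rose in LowAhR+AD, and they belong to deoxynucleotide synthesis. Rrm2 (chr12:24708254-24714146), the small subunit of ribonucleotide reductase, was at 10.6, 2.45, 11.2 and 6.58 CPM in Cont, 6.62, 3.20, 5.85 and 8.35 CPM in LowAhR, 40.5, 22.7, 17.2 and 31.9 CPM in LowAhR+AD and 21.3, 30.5, 15.9 and 25.4 CPM in LowAhR+AD+BJ. It was 4.67-fold higher in LowAhR+AD than in LowAhR (log2 2.22 ± 0.44 SE, adjusted p = 0.00396), and no DNCB library reached down to the others. Rrm1, the large subunit, went from 32.4 ± 2.57 to 68.7 ± 20.1 CPM (SD, n = 4; log2 1.09 ± 0.23 SE, adjusted p = 0.00544). Tyms, thymidylate synthase, went from 8.24 ± 5.44 to 22.2 ± 5.001 CPM (log2 1.43 ± 0.43 SE, adjusted p = 0.0341), a call that was lost without LowAhR replicate 1 or 2 or without LowAhR+AD replicate 2 or 3 (adjusted p 0.0528 to 0.102). Pcna (chr2:132249286-132253180), the sliding clamp of the DNA polymerases, was at 14.2, 28.8, 29.7 and 16.6 CPM in Cont, 25.4, 23.3, 37.2 and 31.5 CPM in LowAhR, 21.9, 64.8, 44.5 and 38.4 CPM in LowAhR+AD and 90.9, 65.8, 52.2 and 62.9 CPM in LowAhR+AD+BJ. LowAhR+AD overlapped LowAhR through replicate 1, the lowest of its group, and the change did not pass the test (log2 0.53 ± 0.32 SE, adjusted p = 0.287).

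Neither G1/S cyclin passed the test, and their values differed in kind. Ccne1 (chr7:38097984-38107490), a cyclin E that activates Cdk2 at the start of S phase, was at 2.95, 0.129, 0.493 and 2.27 CPM in Cont, 1.76, 0, 0 and 1.07 CPM in LowAhR, 9.61, 7.95, 4.89 and 4.49 CPM in LowAhR+AD and 6.29, 9.16, 3.96 and 13.8 CPM in LowAhR+AD+BJ. It had 0 counts in LowAhR replicates 2 and 3, all DNCB libraries were higher than all others, and the fitted change was the largest of the 50 genes but just missed the threshold (log2 3.23 ± 1.05 SE, adjusted p = 0.0512). It passed with DESeq2 (adjusted p = 0.00550), limma voom (adjusted p = 0.0257) and without LowAhR replicate 1 (adjusted p = 0.0444). Ccne2 (chr4:11190433-11204779), the other cyclin E, was at 18.3, 45.8, 20.5 and 36.2 CPM in Cont, 38.9, 28.9, 25.2 and 27.8 CPM in LowAhR, 66.04, 30.6, 28.8 and 32.6 CPM in LowAhR+AD and 29.8, 36.9, 26.8 and 29.6 CPM in LowAhR+AD+BJ. Outside LowAhR+AD replicate 1 its levels in the 3 groups on the low AhR ligand diet lay between 25.2 and 38.9 CPM (log2 0.39 ± 0.32 SE, adjusted p = 0.456).

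In the group of the G2/M cyclins, their kinase and its phosphatase, Ccnb1 and Cdk1 rose in LowAhR+AD, and Ccna2, Ccnb2 and Cdkn3 had log2 fold changes of 0.44, 1.25 and 1.18 that did not pass. Ccnb1 (chr13:100778739-100786486), the cyclin that carries Cdk1 into mitosis, was at 14.5, 5.68, 12.9 and 13.4 CPM in Cont, 7.43, 10.2, 13.7 and 19.1 CPM in LowAhR, 36.3, 40.7, 31.9 and 48.1 CPM in LowAhR+AD and 46.9, 48.5, 29.1 and 42.4 CPM in LowAhR+AD+BJ. The DNCB libraries were all above the others, 3.11-fold over LowAhR in LowAhR+AD (log2 1.64 ± 0.33 SE, adjusted p = 0.00406). Cdk1 (chr10:69335146-69352912), the main kinase of mitosis, was at 18.2, 15.1, 12.3 and 19.1 CPM in Cont, 27.03, 26.2, 16.5 and 25.4 CPM in LowAhR, 21.7, 63.7, 44.1 and 89.2 CPM in LowAhR+AD and 88.6, 115, 43.1 and 89.002 CPM in LowAhR+AD+BJ. LowAhR+AD ranged from 21.7 to 89.2 CPM, and its replicate 1 lay within LowAhR. The change of Cdk1 was called (log2 1.20 ± 0.36 SE, adjusted p = 0.0348), but not when any 1 of the 4 LowAhR libraries was left out (adjusted p 0.0532 to 0.0999), without LowAhR+AD replicate 2 (0.0765) or without replicate 4 (0.130). The call was also lost with limma voom (adjusted p = 0.114) and with edgeR on only the 8 libraries compared (0.0990).

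Among the mitotic kinases and their transcription factor, Aurkb and Plk1 rose, and Ttk had a value in the opposite direction. Plk1 (chr7:122159435-122169884), a kinase of mitotic entry and spindle poles, was at 6.93, 6.33, 9.001 and 1.79 CPM in Cont, 5.14, 1.41, 10.7 and 14.5 CPM in LowAhR, 33.3, 30.6, 26.6 and 33.5 CPM in LowAhR+AD and 17.97, 35.4, 14.7 and 30.7 CPM in LowAhR+AD+BJ. LowAhR+AD was uniform and 3.90-fold above LowAhR (log2 1.96 ± 0.54 SE, adjusted p = 0.0243; adjusted p = 0.0754 without LowAhR replicate 1). Aurkb (chr11:69045624-69051664), the kinase of the chromosomal passenger complex, was at 2.57, 4.52, 2.34 and 1.44 CPM in Cont, 0, 0.256, 0.910 and 0.716 CPM in LowAhR, 5.64, 4.10, 2.33 and 4.49 CPM in LowAhR+AD and 7.39, 2.44, 3.03 and 2.92 CPM in LowAhR+AD+BJ. Its call (log2 3.10 ± 0.89 SE, adjusted p = 0.0291) rested on LowAhR libraries of 0, 2, 7 and 6 counts, and LowAhR+AD overlapped Cont. It was lost without LowAhR replicate 1 (adjusted p = 0.0546) or 2 (0.0772) and without LowAhR+AD replicate 2 (0.0518) or 4 (0.0519). Foxm1 (chr6:128362994-128375886), a transcription factor of G2 and mitosis genes, was at 2.44, 6.97, 4.44 and 4.90 CPM in Cont, 7.43, 5.63, 7.28 and 6.08 CPM in LowAhR, 17.2, 14.9, 7.61 and 16.7 CPM in LowAhR+AD and 7.30, 7.33, 5.91 and 5.54 CPM in LowAhR+AD+BJ. Each LowAhR+AD library was above each LowAhR library, replicate 3 only just, and the change missed the threshold (log2 1.09 ± 0.40 SE, adjusted p = 0.0782; adjusted p = 0.0457 without LowAhR+AD replicate 3). Ttk (chr9:83834651-83872390), the kinase Mps1 of the spindle checkpoint, was at 21.3, 13.8, 19.1 and 20.8 CPM in Cont, 17.03, 11.5, 14.04 and 14.1 CPM in LowAhR, 2.14, 11.8, 11.3 and 6.50 CPM in LowAhR+AD and 17.8, 22.3, 11.6 and 12.4 CPM in LowAhR+AD+BJ. Its LowAhR+AD levels were below the Cont levels without overlap and overlapped LowAhR (log2 -0.83 ± 0.41 SE, adjusted p = 0.198). The kinases Aurka, Pbk and Melk had log2 fold changes of 1.11, 2.12 and 1.30 that did not pass.

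**Figure D3:**
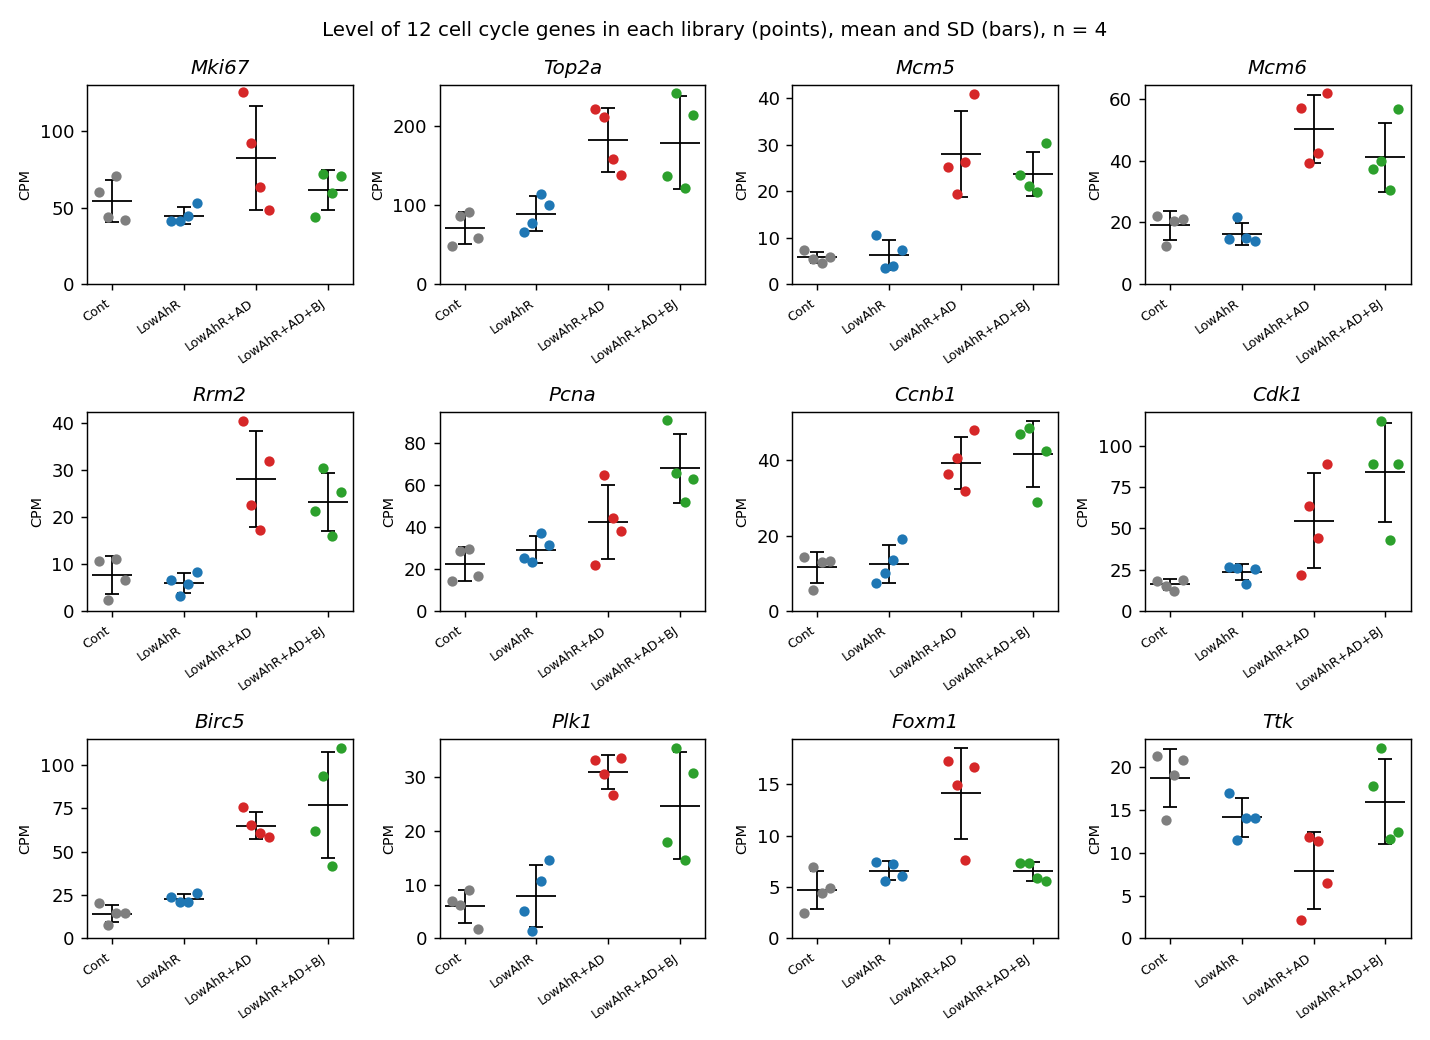
Level in CPM (vertical axes, linear from 0) of 12 cell cycle genes in each library (points), with the mean and SD of each group of 4 (bars). Mcm5, Mcm6, Rrm2, Ccnb1, Birc5 and Plk1 are separated between libraries with and without DNCB (Plk1 by 14.5 against 14.7 CPM), Foxm1 is high in LowAhR+AD and at 5.54 to 7.33 CPM in LowAhR+AD+BJ, and Ttk is lowest in LowAhR+AD.

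Of the 6 genes of the spindle checkpoint and the anaphase ubiquitin ligase, Ube2c and Cdca3 rose in LowAhR+AD. Ube2c, the ubiquitin-conjugating enzyme of that ligase, went from 9.13 ± 6.16 to 32.3 ± 2.84 CPM (SD, n = 4; log2 1.82 ± 0.41 SE, adjusted p = 0.00853), with the limit that its 3′ end overlaps the muscle gene Tnnc2. Cdca3, which promotes entry into mitosis, went from 10.6 ± 3.75 to 26.2 ± 3.09 CPM (log2 1.30 ± 0.35 SE, adjusted p = 0.0215) and lost its call without LowAhR replicate 1 (adjusted p = 0.0574) or 2 (0.0670). Cdc20 (chr4:118432901-118437343), which activates the ligase at anaphase, was at 8.59, 7.62, 11.8 and 18.1 CPM in Cont, 10.4, 7.29, 5.72 and 9.78 CPM in LowAhR, 33.7, 18.9, 10.2 and 16.3 CPM in LowAhR+AD and 15.96, 26.4, 6.61 and 12.1 CPM in LowAhR+AD+BJ. LowAhR+AD replicate 3 lay within LowAhR and replicate 1 far above, and the change did not pass (log2 1.25 ± 0.45 SE, adjusted p = 0.0742; adjusted p = 0.0425 without LowAhR+AD replicate 3). The checkpoint genes Bub1, Bub1b and Mad2l1 had log2 fold changes of 1.91, 1.14 and 0.71 that did not pass.

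Among the centromere, kinetochore and chromosomal passenger genes, Birc5 and Cdca8 rose, both of the passenger complex. Birc5 (chr11:117849237-117855743), survivin, was at 20.4, 7.88, 14.7 and 14.5 CPM in Cont, 23.9, 20.8, 20.9 and 26.4 CPM in LowAhR, 75.7, 65.3, 61.1 and 58.2 CPM in LowAhR+AD and 61.9, 93.8, 41.9 and 109.7 CPM in LowAhR+AD+BJ. LowAhR+AD was 2.83-fold above LowAhR (log2 1.50 ± 0.30 SE, adjusted p = 0.00393) with no overlap, and LowAhR was in turn above Cont without overlap. Cdca8, borealin, went from 10.6 ± 6.70 to 32.3 ± 6.05 CPM (log2 1.61 ± 0.45 SE, adjusted p = 0.0260), a call lost without LowAhR replicate 1 or 2 or without LowAhR+AD replicate 2 or 4 (adjusted p 0.0519 to 0.0814). Cenpa (chr5:30666877-30674837), the histone H3 variant of centromeres, was at 7.83, 13.2, 8.14 and 1.91 CPM in Cont, 11.9, 9.59, 9.75 and 20.03 CPM in LowAhR, 9.30, 26.6, 17.8 and 20.1 CPM in LowAhR+AD and 26.2, 23.3, 19.7 and 19.4 CPM in LowAhR+AD+BJ. LowAhR replicate 4 was as high as LowAhR+AD replicate 4, and the groups overlapped (log2 0.52 ± 0.44 SE, adjusted p = 0.473). The kinetochore genes Cenpe and Cenpf had log2 fold changes of 0.84 and 0.30 that did not pass.

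None of the 6 spindle motors and spindle-binding genes and none of the 5 cytokinesis genes was called in LowAhR+AD against LowAhR, although all 11 had log2 fold changes above 0. At an unadjusted p under 0.05 there were 1 and 2 of them. DESeq2 called more of the 50 genes in all, 26, and its share over all rows is not given here. Kif11 (chr19:37376382-37421863), the motor that pushes spindle poles apart, was at 2.82, 5.16, 4.93 and 0 CPM in Cont, 3.24, 0.256, 4.42 and 5.96 CPM in LowAhR, 1.98, 10.9, 9.40 and 5.38 CPM in LowAhR+AD and 7.75, 12.3, 6.37 and 12.1 CPM in LowAhR+AD+BJ. Its low counts spread widely within every group (log2 0.99 ± 0.88 SE, adjusted p = 0.500). The spindle genes Kif20a, Kif2c, Tpx2, Nusap1 and Hmmr had log2 fold changes from 0.51 (Hmmr) to 1.31 (Kif2c). Anln (chr9:22331214-22389211), a scaffold of the contractile ring, was at 7.31, 1.16, 10.4 and 13.3 CPM in Cont, 5.41, 16.8, 5.07 and 5.72 CPM in LowAhR, 11.4, 16.2, 8.0002 and 8.43 CPM in LowAhR+AD and 28.5, 8.95, 11.7 and 13.3 CPM in LowAhR+AD+BJ. LowAhR replicate 2 lay above the highest LowAhR+AD library (log2 0.41 ± 0.58 SE, adjusted p = 0.689). Kif23 (chr9:61917277-61946810), a motor of the spindle midzone, was at 16.8, 14.2, 12.9 and 14.2 CPM in Cont, 7.70, 8.44, 10.7 and 18.2 CPM in LowAhR, 38.2, 16.6, 18.3 and 22.2 CPM in LowAhR+AD and 4.92, 14.9, 12.3 and 15.2 CPM in LowAhR+AD+BJ. LowAhR replicate 4 lay above LowAhR+AD replicate 2, and the change did not pass (log2 1.08 ± 0.39 SE, adjusted p = 0.0746). Prc1, Ect2 and Racgap1, which bundle the midzone and place the cleavage furrow, had log2 fold changes of 0.78, 1.13 and 0.87.

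Both genes of the chromatin of dividing cells rose. Top2a (chr11:98992947-99024199), the topoisomerase that untangles replicated DNA, was at 48.7, 85.5, 90.9 and 58.02 CPM in Cont, 65.3, 76.6, 114 and 100.3 CPM in LowAhR, 222, 211, 157 and 137 CPM in LowAhR+AD and 137, 242, 122 and 214 CPM in LowAhR+AD+BJ. All DNCB libraries were above all others, 2.04-fold over LowAhR in LowAhR+AD (log2 1.03 ± 0.27 SE, adjusted p = 0.0205), and the call was lost without LowAhR replicate 1 (adjusted p = 0.0711), LowAhR replicate 2 (0.0631) or LowAhR+AD replicate 2 (0.0515). Mki67 (chr7:135689784-135716450), which coats mitotic chromosomes and is the usual stain for dividing cells, was at 59.9, 43.8, 70.8 and 42.1 CPM in Cont, 40.96, 41.3, 44.3 and 52.7 CPM in LowAhR, 126, 92.2, 63.2 and 48.6 CPM in LowAhR+AD and 43.8, 72.2, 59.3 and 70.8 CPM in LowAhR+AD+BJ. LowAhR+AD replicate 4 lay within LowAhR and within Cont, and the change of 1.84-fold was close to the threshold (log2 0.88 ± 0.27 SE, adjusted p = 0.0419). This call was lost without LowAhR replicate 1, 2 or 3 (adjusted p 0.0833 to 0.104), without LowAhR+AD replicate 1 (0.130) or 2 (0.0855), and with limma voom (0.0730). With edgeR it was also lost with upper-quartile factors (adjusted p = 0.0516), with the replicate number as a block (0.0799) and with only the 8 libraries compared (0.109). Over the 21 genes whose libraries are listed, the exact permutation test of log2 CPM gave the smallest p that 4 against 4 allows, 0.0286, for 11 genes. In all, 105 such tests were run over all comparisons. Some of the 21 genes, such as Mcm6, were listed because of a low edgeR p in these same data. The count of 11 is therefore no separate support, and the share of all rows at this p is not given here.

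The comparison of LowAhR+AD with Cont adds the diet, with its bedding, to the dermatitis and shares the LowAhR+AD libraries with the comparison above. Here 22 of the 50 genes were higher and 1 lower (edgeR), beside 12.3% and 9.47% of all tested rows. The genes called were the 13 of the 17 above other than Aurkb, Cdca3, Mki67 and Tyms, and in addition Ccnb2, Cdc6, Cdkn3, Foxm1, Mcm2, Pbk, Pcna, Racgap1 and Tpx2. The median log2 fold change was 1.12. Birc5 had the lowest adjusted p (4.53-fold, log2 2.18 ± 0.30 SE, adjusted p = 0.000201). The gene called lower was Ttk, at 18.8 ± 3.43 CPM (SD) in Cont and 7.95 ± 4.56 CPM in LowAhR+AD (log2 -1.24 ± 0.42 SE, adjusted p = 0.0404), and this call was lost without Cont replicate 1 (adjusted p = 0.0879), 3 (0.0804) or 4 (0.0860), without LowAhR+AD replicate 4 (0.0997), and with counts thinned to the smallest library total (0.0517). The count of genes called higher was 15 without Cont replicate 4 and 15 without LowAhR+AD replicate 4, beside 23 without LowAhR+AD replicate 1.

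The low AhR ligand diet without DNCB, given with its bedding, moved none of the 50 genes past the threshold. In LowAhR against Cont, 0 genes were higher and 0 lower, beside 0% and 0% of all tested rows, all with edgeR. DESeq2 called 1 gene lower, Aurkb, and the share of all rows that DESeq2 called is not given here. Log2 fold changes were above 0 for 30 of 50 genes, beside 51.6% of all tested rows, with a median of 0.10, and 2 genes had an unadjusted p under 0.05, beside 13.7% of all rows. These were Aurkb, with means of 2.72 ± 1.30 CPM (SD) in Cont beside 0.470 ± 0.417 CPM in LowAhR (log2 -2.49 ± 0.88 SE, adjusted p = 0.194 with edgeR, adjusted p = 0.0396 with DESeq2), and Birc5, at 14.4 ± 5.12 and 23.01 ± 2.65 CPM (log2 0.68 ± 0.30 SE, adjusted p = 0.307). They were also the genes without overlap between the groups, 1 lower and 1 higher of the 50, beside 5.63% of all rows lower and 5.68% higher without overlap. Aurkb had few counts in LowAhR. Gins2 came next by p, at 31.1 ± 13.4 and 21.9 ± 3.38 CPM (log2 -0.51 ± 0.26 SE, adjusted p = 0.407), with Cont replicate 1 the highest. Summed over the 50 genes, Cont libraries were at 716 ± 53.0 CPM (650.8 to 762), overlapping LowAhR.

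The comparison of LowAhR+AD+BJ with LowAhR+AD asks how these genes differed in dermatitis with BJIKT, given by gavage. None of the 50 genes was called in either direction (edgeR), beside 0% and 0% of all tested rows. DESeq2 and limma voom called none either, and neither did edgeR without LowAhR+AD replicate 1. The 50 genes summed to 1542 ± 317 CPM (1122 to 1876) with BJIKT, with more spread than the 1538 ± 162 CPM without it, and the groups overlapped. Log2 fold changes were above 0 for 27 of 50, beside 50% of all rows, with a median of 0.08 and a median standard error of 0.41. At an unadjusted p under 0.05 there were 4 genes, beside 9.46% of all rows. Groups did not overlap for 3 genes, all lower with BJIKT, beside 2.65% of all rows lower and 2.42% higher without overlap: Foxm1, Kif23 and Mcm7. Foxm1 had the lowest p and was at 6.52 ± 0.927 CPM (SD) with BJIKT, beside 6.61 ± 0.889 CPM in LowAhR and 14.1 ± 4.45 CPM in LowAhR+AD (log2 -1.11 ± 0.40 SE, adjusted p = 0.498, exact permutation p = 0.0286, the smallest possible). A lack of overlap fixes the permutation p at this value. It is unadjusted, comes from 105 such tests and is no separate support. Kif23 was at 11.8 ± 4.78 CPM with and 23.8 ± 9.87 CPM without BJIKT (log2 -1.01 ± 0.39 SE, adjusted p = 0.499). Mcm7 was at 32.2 ± 4.50 and 50.9 ± 18.9 CPM (log2 -0.66 ± 0.36 SE, adjusted p = 0.569). Ttk was higher in value, at 16.01 ± 5.005 beside 7.95 ± 4.56 CPM (log2 1.01 ± 0.41 SE, adjusted p = 0.502), with overlap at 11.6 against 11.8 CPM. For the stain gene Mki67 the fitted difference was log2 -0.42 ± 0.27 SE, adjusted p = 0.629, and for Top2a log2 -0.03 ± 0.27 SE, adjusted p = 0.982.

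Against LowAhR, the BJIKT-treated dermatitis group had 15 of the 50 genes higher and 0 lower (edgeR), beside 3.64% and 3.12% of all tested rows, with 49 log2 fold changes above 0, beside 50.4% of all rows, and a median of 1.22. The groups did not overlap for 23 genes, all higher, beside 8.91% of all rows higher and 8.19% lower without overlap. This comparison shares the LowAhR libraries with that of LowAhR+AD against LowAhR, where 17 genes were called. Named in both were 12 genes: Aurkb, Birc5, Ccnb1, Cdca3, Cdk1, Mcm5, Mcm6, Rrm1, Rrm2, Top2a, Tyms and Ube2c. Cdca8, Mcm3, Mcm7, Mki67 and Plk1 passed only without BJIKT, and Ccnb2, Pcna and Tpx2 only with it, but none of these 8 passed the test of the difference between the groups with and without BJIKT. Ccnb1 was at log2 1.72 ± 0.33 SE, adjusted p = 0.00547 over LowAhR with BJIKT. For Cdk1, all LowAhR+AD+BJ libraries were above LowAhR (log2 1.82 ± 0.36 SE, adjusted p = 0.00757). For Pcna too the groups did not overlap (log2 1.21 ± 0.32 SE, adjusted p = 0.0301), but the call was lost without LowAhR replicate 1 or 2 or LowAhR+AD+BJ replicate 1, 2 or 4 (adjusted p 0.0640 to 0.0982). Mki67 had values of 61.5 ± 13.2 CPM beside 44.8 ± 5.47 CPM in LowAhR (log2 0.46 ± 0.27 SE, adjusted p = 0.355). The count of 15 was 20 without LowAhR+AD+BJ replicate 3, 7 without LowAhR replicate 1, 8 without LowAhR replicate 2, 7 without LowAhR+AD+BJ replicate 2, 8 without its replicate 4 and 10 without its replicate 1.

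A further 123 genes of the same pathway were listed, of which 122 were tested. The 3′ ends of these 123 genes were not checked for overlap with other counted genes. In LowAhR+AD against LowAhR, 21 were higher and 2 lower (edgeR), beside 6.42% and 6.21% of all tested rows, with a median log2 fold change of 0.85 beside 0.04: 8 higher of 34 replication genes, 9 higher and 1 lower of 57 mitosis genes, 3 higher of 15 G1 cyclins, kinases and transcription factors, and 1 higher and 1 lower of 16 inhibitors and antiproliferative genes. For the last list 1 of 16 is 6.25%, near the share of all tested rows, and without LowAhR+AD replicate 1 the list had 0 calls, the replication genes 2 and the mitosis genes 5 higher and 1 lower. The 21 became 5 without LowAhR replicate 1, 10 without LowAhR replicate 2, 12 without LowAhR replicate 3, 10 without LowAhR+AD replicate 1, 11 without LowAhR+AD replicate 2 and 3 with only the 8 libraries compared. Cdk4, the kinase of D-type cyclins in G1, was at 22.3, 13.4, 18.4 and 11.1 CPM in Cont, 13.7, 12.2, 15.7 and 27.1 CPM in LowAhR, 107, 50.4, 56.2 and 64.3 CPM in LowAhR+AD and 41.5, 56.6, 40.97 and 54.9 CPM in LowAhR+AD+BJ. All DNCB libraries were above the others, 4.04-fold over LowAhR in LowAhR+AD (log2 2.01 ± 0.31 SE, adjusted p = 0.000935). Its partner Ccnd1 was at 39.1, 71.3, 66.3 and 59.5 CPM in Cont, 38.9, 56.7, 62.1 and 72.6 CPM in LowAhR, 200.5, 99.9, 134 and 79.9 CPM in LowAhR+AD and 52.5, 73.3, 68.6 and 102 CPM in LowAhR+AD+BJ. It rose in LowAhR+AD (log2 1.16 ± 0.29 SE, adjusted p = 0.0159; adjusted p = 0.0569 without LowAhR replicate 1), and the BJIKT group overlapped LowAhR (against LowAhR+AD, log2 -0.79 ± 0.29 SE, adjusted p = 0.498). Pttg1, securin, which holds back separase until anaphase, fell, with 152, 129.5, 157 and 174 CPM in Cont, 222, 215, 196 and 141 CPM in LowAhR, 59.4, 102, 110.1 and 125 CPM in LowAhR+AD and 149.7, 138, 162 and 139 CPM in LowAhR+AD+BJ. It was below LowAhR in all LowAhR+AD libraries (log2 -0.97 ± 0.22 SE, adjusted p = 0.00893), unlike the 49 cell cycle genes with a log2 fold change above 0.

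Of the CDK inhibitors, the values of a pair chosen by name were as follows. Cdkn1a, p21, was at 205, 143, 256 and 161 CPM in Cont, 174, 139, 175 and 218 CPM in LowAhR, 333, 260.00, 289.95 and 276 CPM in LowAhR+AD and 144, 197, 218 and 244 CPM in LowAhR+AD+BJ. It was higher in LowAhR+AD than in LowAhR without overlap (log2 0.72 ± 0.22 SE, adjusted p = 0.0432), a call that held only without LowAhR replicate 4 among the 8 fits with a library left out (adjusted p 0.0533 to 0.130 in the others). Cdkn1b, p27, was at 169, 160.1, 197 and 191 CPM in Cont, 176, 157, 149.9 and 119.7 CPM in LowAhR, 73.9, 109, 107 and 112 CPM in LowAhR+AD and 119, 132, 148 and 126 CPM in LowAhR+AD+BJ. It was lower without overlap (log2 -0.58 ± 0.18 SE, adjusted p = 0.0447), again called only without LowAhR replicate 4 (adjusted p 0.0554 to 0.135 in the others). The activator E2f1 had means of 5.75 ± 2.41 CPM (SD) in LowAhR and 12.4 ± 7.73 CPM in LowAhR+AD (log2 1.11 ± 0.75 SE, adjusted p = 0.358). Myc was near 2.89 ± 2.38 and 2.86 ± 2.37 CPM (log2 -0.01 ± 0.86 SE, adjusted p = 0.993), and the sign of its change turned with limma voom and when LowAhR replicate 1 or 2 or LowAhR+AD replicate 3 or 4 was left out. In LowAhR against Cont edgeR called 0 of the 122, with 7 at an unadjusted p under 0.05, beside 13.7% of all tested rows. The lowest p-values there were those of Gas1, a growth arrest gene, with means of 149.9 ± 42.5 CPM in Cont beside 72.9 ± 7.43 CPM in LowAhR (log2 -1.04 ± 0.23 SE, adjusted p = 0.0694), and of the chromatin assembly factor Chaf1b, at 10.1 ± 5.83 and 2.79 ± 0.492 CPM (log2 -1.85 ± 0.52 SE, adjusted p = 0.110); DESeq2 called both (adjusted p 0.00575 and 0.0272). In LowAhR+AD+BJ against LowAhR+AD edgeR called 0 of the 122, with 10 at an unadjusted p under 0.05, beside 9.46% of all tested rows, and the lowest p-values in the condensin subunit Ncapd2, at 50.4 ± 18.96 CPM without and 24.3 ± 3.61 CPM with BJIKT (log2 -1.05 ± 0.30 SE, adjusted p = 0.498), and in Ccnd2, at 291 ± 98.8 and 160.3 ± 28.6 CPM (log2 -0.86 ± 0.25 SE, adjusted p = 0.498). LowAhR+AD+BJ had 7 of the 122 higher than LowAhR (5.74%) and 0 lower (edgeR), beside 3.64% and 3.12% of all tested rows. The share of 5.74% is near that of all tested rows. However, log2 fold changes were above 0 for 106 of the 122, beside 50.4% of all tested rows, with a median of 0.81. The groups did not overlap for 30 of the 122, all higher, beside 8.91% of all tested rows higher and 8.19% lower without overlap. The count of 7 was 3 without LowAhR replicate 1, LowAhR+AD+BJ replicate 2 or LowAhR+AD+BJ replicate 4. It was 4 without LowAhR replicate 2 or LowAhR+AD+BJ replicate 1, and 12 without LowAhR+AD+BJ replicate 3.

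Markers of other cell types moved with DNCB too. The defining markers of skin were present in every group, with the 7 basal keratinocyte markers summing to 2962 to 3610 CPM in LowAhR and 5603 to 10738 CPM in LowAhR+AD, where the highest was replicate 1 and the others were at 5603 to 7174 CPM. Of these markers 3 were called higher (Krt5, Krt14 and Itgb4) and 1 lower (Col17a1), the sum was carried mostly by Krt5 and Krt14, and the list's median log2 fold change was 0.82 against LowAhR and 0.07 against Cont. All 4 activated keratinocyte markers were higher, with sums of 525 to 1734 CPM and 11004 to 32976 CPM. Of 5 suprabasal markers none was called, with sums of 4060 to 8321 CPM and 483 to 11126 CPM. Of 10 markers of hair follicle matrix and shaft 2 were higher, with sums of 46.0 to 2892 CPM in LowAhR and 2067 to 7209 CPM in LowAhR+AD, and none of the 10 was at 0 in a whole group. Against Cont, where the sums were 70.3 to 234 CPM, 8 of the 10 were higher (median log2 fold change 5.03), beside 12.3% of all tested rows. Without LowAhR+AD replicate 1, 10 were higher. In the same comparison 22 cell cycle genes were higher, and a link between the 2 lists was not tested. Neutrophil markers were higher for 3 of 4 tested (of 6 listed, Ly6g was not in the lists used here and Csf3r was not tested), with sums of 51.2 to 79.5 CPM and 122 to 2435 CPM. The 4 tested were Cxcr2, S100a8, S100a9 and Mmp9, and the paper counts S100A genes in the epidermal differentiation complex. These values therefore cannot be read as neutrophils alone. All 7 skeletal muscle markers were lower (6266 to 16272 CPM and 324 to 2739 CPM), as were 5 of 6 adipocyte markers (5720 to 9634 and 220.1 to 2636 CPM), 2 of 6 fibroblast markers (28016 to 54068 and 3896 to 22584 CPM) and 2 of 6 T cell markers (21.3 to 34.9 and 2.14 to 12.7 CPM). None of the 6 macrophage markers (969 to 1055 and 164 to 981 CPM) or 5 endothelial markers (72.5 to 153 and 109.5 to 211 CPM) was called. Without LowAhR+AD replicate 1, the counts against LowAhR changed to 2 higher for the basal list, 6 lower for muscle and 1 higher for the endothelial list, and the others were as given. The part of these shifts in the levels of the cell cycle genes was not tested. Set against the basal keratinocyte markers, the 50 genes summed to 22.6 ± 2.33% of their CPM in Cont (SD, n = 4), 23.8 ± 1.69% in LowAhR, 21.8 ± 4.85% in LowAhR+AD (15.6%, in replicate 1, to 27.0%) and 23.7 ± 1.87% in LowAhR+AD+BJ, and these ranges overlapped. Set against the activated keratinocyte markers, they were at 72.1 ± 12.6%, 82.8 ± 32.8%, 8.09 ± 3.02% and 6.90 ± 1.38% in the same order, lower in all DNCB libraries. Set against the hair follicle markers, they were at 733 ± 333%, 492 ± 663%, 40.8 ± 27.1% and 57.9 ± 37.9%, with overlap between LowAhR (29.8 to 1458%) and LowAhR+AD (23.0 to 81.1%). When library sizes were computed without muscle, hair follicle, fat and Rn45s genes, 18 of the 50 genes were called higher in LowAhR+AD against LowAhR, including all 17.

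**Figure D4:**
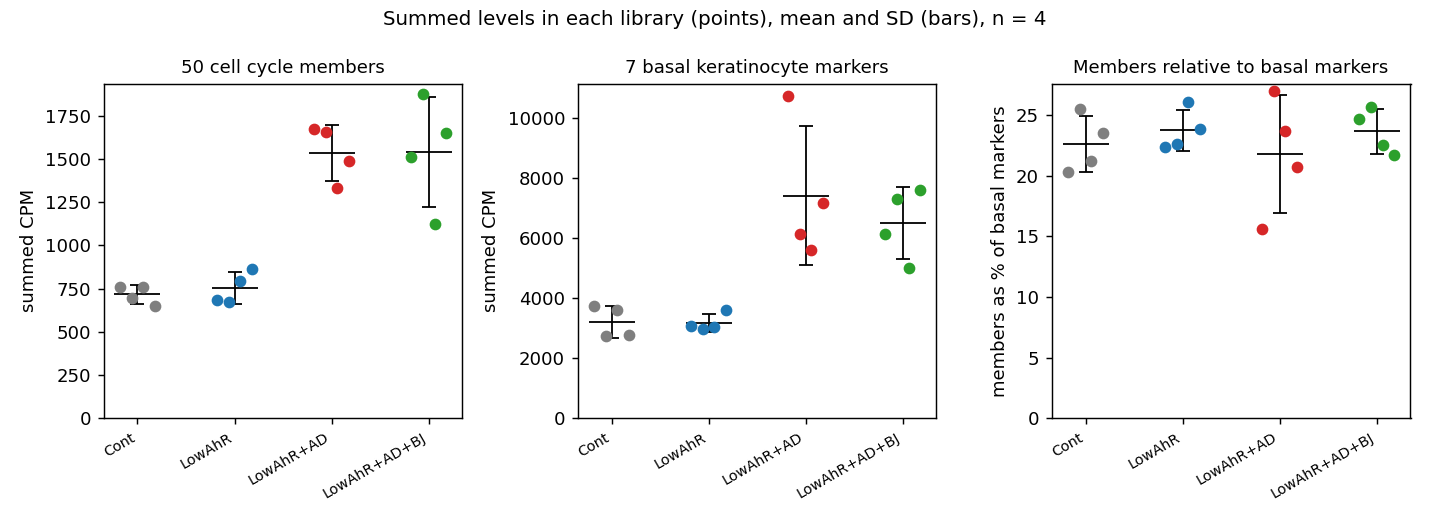
Summed CPM of the 50 cell cycle genes (left), summed CPM of the 7 basal keratinocyte markers (middle) and the former as a percentage of the latter (right), for each library (points) with the mean and SD of each group of 4 (bars). Both sums are higher in all libraries of the DNCB groups, and the percentages overlap, with means between 21.8% and 23.8%.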

How the data were processed

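RNA of 16 mouse dorsal skin samples was measured by QuantSeq 3′ sequencing, single-end. The authors deposited raw read counts per gene for each library. Their processing notes name Bowtie2, bedtools and mm10, while the counting rule, the treatment of multiply mapped reads, the use of strand and the annotation are not given in the sources used here. Groups came from the labels, which give no batch or date. The counts were tested with edgeR 4.0.16 (R 4.3.3; quasi-likelihood test, TMM factors, rows kept by filterByExpr at min.count 10 and min.total.count 15) in a single model of all 16 libraries, with Benjamini-Hochberg adjustment over 14854 of 23282 rows and a threshold of 0.05. The methods describe 4 skin samples per group drawn at random, and p-values measure the spread between these samples. CPM use the TMM-scaled library size, a standard error is the log2 fold change over the root of its F statistic, and exact permutation tests used log2 CPM with a prior count of 2. DESeq2 1.42.0 and limma 3.58.1 were among the alternatives. The code was tested on simulated data with known fold changes. Values in every library are given for Mki67, Top2a, Pcna, Mcm5, Rrm2, Ccne1, Ccne2, Ccnb1, Cdk1, Foxm1, Plk1, Cdc20, Birc5, Cenpa, Kif11, Anln and the 3 genes with the lowest p in each of 3 comparisons. Of the pathway genes, Cdkn1a, Cdkn1b, Ccnd1, Myc, E2f1 and the 2 with the lowest p in each of these comparisons are named, and any called gene, or one moving opposite to most, may be named too. The members and lists were chosen with earlier results of these data known.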

Additional observations from a re-analysis of the deposited data

Results flagged for a closer look

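In 6 of the 88 groups of 4 libraries examined, the library farthest from the others stood apart by Dixon's test, which flags about 1 in 20 groups by chance. Ccne2 was at 66.0 CPM in LowAhR+AD replicate 1, beside 28.8 to 32.6 CPM in the others of its group. Ccnb1 was at 5.68 CPM in Cont replicate 2, beside 12.9 to 14.5 CPM. Cdk1 was at 16.5 CPM in LowAhR replicate 3, beside 25.4 to 27.0 CPM. Anln was at 16.8 CPM in LowAhR replicate 2, beside 5.07 to 5.72 CPM. Mcm6 was at 12.3 CPM in Cont replicate 2, beside 20.6 to 22.1 CPM, and at 21.7 CPM in LowAhR replicate 2, beside 14.1 to 15.1 CPM.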

How the results depend on the processing

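Of 960 alternative values for 57 results on single genes, 813 kept their direction and their side of the threshold, 125 were no longer past it, 17 passed it newly and 5 changed sign. All 5 were Myc in LowAhR+AD against LowAhR, at 0.021 with limma voom and 0.17 to 0.56 without LowAhR replicate 1 or 2 or LowAhR+AD replicate 3 or 4. Over all 8 left-out libraries Myc ranged from -0.62 to 0.56. In LowAhR+AD against LowAhR, 6 of the 50 genes were called under every alternative and with every library left out: Birc5, Ccnb1, Mcm5, Mcm6, Rrm1 and Rrm2. With DESeq2, the cell cycle genes called higher there were 26, those lower in LowAhR against Cont were 1, and the further pathway genes called were 2 lower in LowAhR against Cont, 5 lower in LowAhR+AD against Cont and 13 higher in LowAhR+AD+BJ against LowAhR. With only the 8 libraries compared, the cell cycle genes called higher in LowAhR+AD against LowAhR were 8 and those lower against Cont 0, and the pathway genes called were 3 higher and 0 lower in LowAhR+AD against LowAhR, 13 higher in LowAhR+AD against Cont, 1 lower in LowAhR against Cont and 1 lower in LowAhR+AD+BJ against LowAhR. The count of 1 cell cycle gene lower in LowAhR+AD against Cont, Ttk, was also 0 without the filter, with the replicate block and with thinned counts, an alternative chosen after seeing the data, and the 2 pathway genes lower against LowAhR were 1 without the filter and 1 with the replicate block. With a library left out, the cell cycle genes called higher were 9 to 18 in LowAhR+AD against LowAhR, 15 to 23 against Cont and 7 to 20 in LowAhR+AD+BJ against LowAhR, and those lower against Cont 0 to 1. The pathway genes called higher were then 5 to 20, 14 to 23 and 3 to 12 in the same comparisons, and those lower 1 to 2 in LowAhR+AD against LowAhR and 1 to 3 against Cont. The cause of these changes was not tested. Shares of all rows called under the alternatives, DESeq2 among them, are not given here, so these counts have no background beside them. The labels give no meaning to the replicate numbers. Of 24 pairs of same-numbered libraries 3 had a correlation of deviations over 0.1 (-0.055 to 0.167). There were 7 of 16 libraries that correlated best with their own number, and the number that chance would give was not computed. With the replicate block, 15 genes were called higher in LowAhR+AD against LowAhR (14 of the 17) and 15 in LowAhR+AD+BJ against LowAhR (13 of the 15). Low counts limit Aurkb, Ccne1 and Kif11, which had a library at 0. They also limit further cell cycle genes not listed by library, since 5 of the 50 were at 0 counts in LowAhR replicate 2.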

Other observations

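Further pathway genes not yet described are named here after their values were seen. Zwint, a kinetochore protein, was at 76.8, 65.7, 70.3 and 90.2 CPM in Cont, 83.4, 62.5, 92.2 and 74.2 CPM in LowAhR, 134, 137, 99.5 and 132 CPM in LowAhR+AD and 200.5, 170.2, 107 and 166 CPM in LowAhR+AD+BJ. All DNCB libraries were above all others, and the change over LowAhR was log2 0.69 ± 0.21 SE, adjusted p = 0.0366 in LowAhR+AD and log2 1.04 ± 0.21 SE, adjusted p = 0.00763 in LowAhR+AD+BJ (edgeR). The call in LowAhR+AD was lost without LowAhR replicate 1, 2 or 4 or LowAhR+AD replicate 1, 2 or 4 (adjusted p 0.0601 to 0.116). Spc25, a subunit of the NDC80 complex that holds microtubules at the kinetochore, was at 16.7, 15.8, 9.25 and 13.04 CPM in Cont, 17.3, 18.2, 18.6 and 9.66 CPM in LowAhR, 31.5, 32.5, 32.6 and 25.6 CPM in LowAhR+AD and 28.7, 32.6, 27.1 and 28.9 CPM in LowAhR+AD+BJ. It too was separated by DNCB, with log2 0.94 ± 0.26 SE, adjusted p = 0.0243 and log2 0.88 ± 0.26 SE, adjusted p = 0.0487. The former was lost without LowAhR replicate 4 (adjusted p = 0.0575) or LowAhR+AD replicate 2 (0.0531), and the latter without any 1 of its 8 libraries (0.0508 to 0.144). Stmn1, which destabilizes microtubules, was at 54.01, 48.9, 54.5 and 51.3 CPM in Cont, 85.4, 54.4, 60.5 and 72.1 CPM in LowAhR, 161, 112, 139 and 92.4 CPM in LowAhR+AD and 59.6, 94.8, 79.99 and 92.8 CPM in LowAhR+AD+BJ. It rose in LowAhR+AD (log2 0.89 ± 0.21 SE, adjusted p = 0.0116), while the BJIKT group overlapped LowAhR, and the difference between the DNCB groups was log2 -0.62 ± 0.21 SE, adjusted p = 0.498.

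E2f4, which binds the promoters of these genes in resting cells, was at 16.7, 20.7, 18.002 and 11.4 CPM in Cont, 7.84, 12.02, 18.2 and 17.2 CPM in LowAhR, 22.1, 25.3, 19.1 and 36.6 CPM in LowAhR+AD and 36.9, 26.4, 25.1 and 29.5 CPM in LowAhR+AD+BJ. All libraries of both DNCB groups were above LowAhR. With BJIKT the change passed (log2 1.09 ± 0.31 SE, adjusted p = 0.0392). Without BJIKT it did not (log2 0.90 ± 0.31 SE, adjusted p = 0.0612) unless LowAhR+AD replicate 3 was left out (adjusted p = 0.0470). The call with BJIKT was lost without LowAhR replicate 1 or 2 or LowAhR+AD+BJ replicate 1, 2 or 4 (adjusted p 0.0819 to 0.117). The difference between the DNCB groups was log2 0.19 ± 0.30 SE, adjusted p = 0.864. Mybl2, a transcription factor of dividing cells, was at 0.257, 1.94, 0.863 and 0 CPM in Cont, 1.76, 0, 3.77 and 2.62 CPM in LowAhR, 8.47, 7.79, 4.89 and 6.74 CPM in LowAhR+AD and 6.11, 7.83, 4.90 and 12.5 CPM in LowAhR+AD+BJ. It was called against Cont (log2 3.17 ± 1.00 SE, adjusted p = 0.0302) and not against LowAhR (log2 1.77 ± 0.93 SE, adjusted p = 0.227), and the former call was lost without Cont replicate 1, 3 or 4 or LowAhR+AD replicate 2 or 4 (adjusted p 0.0511 to 0.0749).

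Mki67 and Top2a together made up between 11.9% (LowAhR+AD+BJ replicate 1) and 21.2% (Cont replicate 3) of the summed CPM of the 50 cell cycle genes, with overlap between all groups.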
